A study of Mus musculus with 2 samples.

Results

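The glycolysis, lactate and sugar transport genes described here are 31 of the 32285 genes listed in both libraries. They were chosen by name, with earlier results of these data known. They cover the steps from sugar uptake to lactate export, with the somatic and the testis form of an enzyme where both exist. Single-cell RNA was captured from dissociated whole mouse testis with a droplet 3′ kit, in 1 library per genotype. The control was Dot1L fl/+ and Cre-negative, so control cells carry 1 floxed and 1 wild-type allele. The conditional knockout (cKO) was Dot1L fl/delta and Ddx4-Cre-positive, so that every cell carries 1 delta allele and the floxed allele is the target of the Cre in germ cells, where Ddx4 is active. Somatic cells of the cKO testis are not the target of this Cre and differ from control somatic cells by their delta allele. DOT1L is the histone methyltransferase that acts on lysine 79 of histone H3. The labels give neither ages nor the number of animals per library.

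Glycolysis breaks glucose or fructose down to pyruvate, and lactate dehydrogenase interconverts pyruvate and lactate. In the testis, Sertoli cells are known to export lactate, which meiotic cells and early spermatids import and oxidise, whereas sperm rely on glycolysis along the flagellum for motility. Several of the sperm enzymes come from separate genes that are active only or mainly in germ cells: Pgk2 is a retrogene copy of the X-linked Pgk1, Gapdhs is the sperm counterpart of Gapdh, and Ldhc encodes the testis lactate dehydrogenase subunit.

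A UMI is a unique molecular identifier and stands for 1 captured transcript. There were 17408 barcodes with 155487418 UMIs for the control genotype and 20601 barcodes with 156518838 UMIs for the cKO. After filtering, 15124 and 17587 cells were kept. Of these, 8382 control cells (55.4%) and 9923 cKO cells (56.4%) were given 1 of 8 germ cell stages or 4 somatic groups by marker genes, none of which is one of the 31. Each stage name below means cells that resemble that stage by its markers, and the round, elongating and condensing spermatid stages are ranges of a marker level with 8.64% to 11.9% of their cells within 10% of a boundary. Germ cell stages held between 243 and 1626 cells per library, with median depths from 3625.5 UMIs per cell in cKO condensing spermatids to 38912 in control pachytene spermatocytes. Dot1l itself was at 129.7 CPM (counts per 1000000 UMIs of a stage) in control and 41.96 CPM in cKO diplotene to secondary spermatocytes, and at 68.9 and 8.04 CPM in early round spermatids, while 3′ tags need not lie in the deleted part of the gene. In a clustering made without the 31 genes the libraries stood apart from pachytene on: cluster 5 held 1272 control and 0 cKO elongating spermatids, and cluster 21 held 0 and 1278. Pachytene cells lay mostly in cluster 9 in the control library (394 of 615) and in cluster 8 in the cKO library (542 of 817). The libraries shared 102 barcode sequences.

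With 1 library per genotype no test was possible, and no value below has a replicate check. The 95% intervals, exact Poisson for a UMI sum, Clopper-Pearson for a share and the conditional exact interval for a ratio, cover counting error only. RNA set free from broken cells also enters droplets. Estimated from spermatid transcripts in Leydig, macrophage and mesenchymal cells, it amounted to 1314 UMIs per control cell and 1896 per cKO cell. Sertoli barcodes had median totals of only 959 and 1079 UMIs, so the estimate is too high for many shallow barcodes. It may be too high for germ cells as well. The spermatid gene Prm1 had 3115 UMIs in 101 control Leydig cells, against 4983 in 243 control spermatogonia and 16723 in 615 control pachytene spermatocytes. A level at or below that estimate is named as such, because it cannot be told apart from free RNA alone. Such a level need not be free RNA. In sums over a stage, fewer expressing cells and less RNA per cell cannot be told apart. A 3′ kit gives 1 UMI per captured transcript whatever its length, so CPM values can be set side by side between genes, apart from differences in capture.

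The start regions of 3 enzyme pairs are shown because the somatic and testis forms in them differ in their content of CpG. This dinucleotide is frequent at the promoters of many widely expressed genes. For Ldha and Ldhc the first listed start is shown. Each line gives the 200 bases from 250 to 51 before the RefSeq transcription start (GRCm38.p6), read 5′ to 3′ on the strand of the gene, with every CpG in capitals.

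Pgk1, chrX:106186850-106187049, plus strand: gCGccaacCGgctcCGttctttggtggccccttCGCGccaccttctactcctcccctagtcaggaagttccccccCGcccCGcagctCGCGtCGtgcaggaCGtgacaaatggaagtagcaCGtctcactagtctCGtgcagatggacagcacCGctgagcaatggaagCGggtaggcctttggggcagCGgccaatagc
Pgk2, chr17:40208660-40208859, minus strand: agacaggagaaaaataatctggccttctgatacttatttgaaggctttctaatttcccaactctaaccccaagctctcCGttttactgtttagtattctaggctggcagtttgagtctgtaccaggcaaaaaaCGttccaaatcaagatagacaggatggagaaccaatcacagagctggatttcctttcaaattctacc
Pgam1, chr19:41911621-41911820, plus strand: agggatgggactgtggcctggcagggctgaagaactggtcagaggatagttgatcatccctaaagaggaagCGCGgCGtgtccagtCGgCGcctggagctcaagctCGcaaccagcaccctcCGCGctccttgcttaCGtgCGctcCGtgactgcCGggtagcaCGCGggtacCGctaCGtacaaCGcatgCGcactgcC
Pgam2, chr11:5803847-5804046, minus strand: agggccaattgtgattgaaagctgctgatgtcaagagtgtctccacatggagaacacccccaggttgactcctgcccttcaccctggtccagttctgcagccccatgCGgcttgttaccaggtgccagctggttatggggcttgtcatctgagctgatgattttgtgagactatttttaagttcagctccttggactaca
Ldha, chr7:46845554-46845753, plus strand: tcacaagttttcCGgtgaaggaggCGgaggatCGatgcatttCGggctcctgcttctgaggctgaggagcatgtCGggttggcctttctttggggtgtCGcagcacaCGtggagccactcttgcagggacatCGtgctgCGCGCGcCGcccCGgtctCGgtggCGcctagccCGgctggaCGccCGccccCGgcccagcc
Ldhc, chr7:46861013-46861212, plus strand: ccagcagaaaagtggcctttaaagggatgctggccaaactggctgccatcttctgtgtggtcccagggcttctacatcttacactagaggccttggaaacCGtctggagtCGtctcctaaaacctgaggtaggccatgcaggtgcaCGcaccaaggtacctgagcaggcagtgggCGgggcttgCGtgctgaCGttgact

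Over the full 250 bases before the start, the somatic Pgk1 held 17 CpG and Pgk2 held 3. Pgam1 held 22 and Pgam2 held 1, and the first Ldha start held 25 where the first Ldhc start held 8. The second Ldha start held 9 and the second Ldhc start 3, so the second Ldha start was close to the first Ldhc start. The median over all 32851 RefSeq start windows of that length was 6. The somatic windows named here and the first of Ldhc lay above it. Those of Pgk2 and Pgam2 and the second of Ldhc lay below it. The enolases did not share this contrast, with 22 CpG at the start of the sperm form Eno4 and 9 to 21 at the 3 starts of Eno1. The cyclic AMP response element TGACGTCA, read on both strands, occurred in 1.55% of all windows and in 1 of the 41 windows of the members, that of Ldha. Its shorter core TGACG, which the full element contains, occurred in 17.8% of all windows and in 5 of the 41 windows of the members. These were both Ldha windows, the first Ldhc window and those of Hk2 and Slc16a3. Start windows were found for 28 members, and none is given for Aldoart1, Slc2a3 and Slc16a7.

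Phosphoglycerate kinase showed the plainest exchange of forms. Pgk1 encodes the somatic enzyme, lies on the X chromosome (chrX:106187100-106203699), and was highest in spermatogonia. Control Pgk1 was at 26.9 CPM (20.7 to 34.4) in spermatogonia, 4.19 in early spermatocytes, 4.08 in pachytene and 1.91 in diplotene to secondary spermatocytes. It was at 2.15 CPM in early round and 10.5 CPM (9.3 to 11.8) in late round spermatids, then at 5.07 and 3.8 CPM in elongating and condensing spermatids. So the late round level stood above those on either side of it. The cKO library had the same course, with 1.73 CPM in early round and 11.5 CPM in late round spermatids. The autosomal Pgk2 (chr17:40207015-40208640) was at 30.7 and 31.1 CPM in control spermatogonia and early spermatocytes, which is at or below the free RNA estimate. It was at 97.5 CPM in pachytene, 254 in diplotene to secondary spermatocytes, 397 in early round, 519 in late round, 785 in elongating and 1643 CPM in condensing spermatids. Each step from pachytene on was larger than the counting error. Counted per cell, the same gene peaked earlier, at 10.98 UMIs per control cell in late round spermatids, with 7.12 in condensing spermatids, whose total RNA is much lower. The Pgk2 share of the pair was 96.0% (95.1 to 96.7) in control pachytene and 96.6% (95.9 to 97.2) in cKO pachytene spermatocytes, and 97.6% to 99.8% in every later stage of both libraries.

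Glyceraldehyde-3-phosphate dehydrogenase changed hands later. Control Gapdh was at 272 CPM in spermatogonia and at 29.9 CPM in early spermatocytes, with its lowest level, 9.57 CPM, in early round spermatids. Control Gapdhs, which encodes the flagellar enzyme needed for sperm motility, was at 120.4, 124, 39.1 and 45.1 CPM in the 4 stages up to diplotene to secondary spermatocytes, all at or below the free RNA estimate. It reached 341 CPM (333 to 350) in early round, 1043 in late round, 2664 in elongating and 5602 CPM (5546 to 5659) in condensing spermatids. Gapdhs was thus the most abundant of the 31 genes in condensing spermatids and came after Ldhc in elongating ones. Per cell, Gapdhs peaked at 33.2 UMIs in control and 27.2 UMIs in cKO elongating spermatids, whose median depths were 11330 and 9176 UMIs. Cells with 2000 or more UMIs were thinned to 2000, and shallower cells were left out. The share with a Gapdhs UMI was then 10.1% in control diplotene to secondary spermatocytes, 51.8% in early round and 99.5% in elongating spermatids. Control Leydig cells and macrophages, which should lack the gene, gave 44.8% of 29 cells and 55.6% of 18 cells of that depth. Over all 101 Leydig cells and 33 macrophages the median depths were 1314 and 2450 UMIs, against 18512 in early round spermatids. Free RNA, estimated at 1314 UMIs per control cell, enters these barcodes too. Its part in the somatic shares was not tested. In control pachytene spermatocytes, where Gapdhs was at or below the free RNA estimate in deep cells, the share was 9.27%. The Gapdh count is uncertain, since 49.3% of the 40-base words at its 3′ end occur in other annotated transcripts.

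The testis form of phosphoglycerate mutase neared its highest level by pachytene, earlier than Pgk2, and then held a plateau. Control Pgam1 was at 99.9 CPM in spermatogonia, 11.7 in both early and pachytene spermatocytes and 2.05 CPM in late round spermatids. The late round level was at or below the free RNA estimate. Pgam2, also the muscle form, was at 68.3 CPM in control spermatogonia, below the free RNA estimate, and at 149 CPM in early spermatocytes. The latter was above the estimate, unlike Pgk2 in that stage, while the cKO level of Pgam2 there was at or below it. From pachytene to condensing spermatids it was between 1042 and 1357 CPM, with no further step of the size seen before pachytene. The Pgam2 share of the pair was 40.6% in control spermatogonia, 92.7% in early spermatocytes and at least 99.0% in every later control stage.

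Lactate dehydrogenase differed from these pairs, because the somatic form did not give way. Ldha, whose subunit favours lactate formation, and Ldhc were both highest in pachytene and diplotene to secondary spermatocytes. Control Ldha was at 49.5, 219, 946, 938, 684, 444, 79.3 and 58.6 CPM from spermatogonia to condensing spermatids. Control Ldhc was at 689, 2504, 9340, 9425, 8292, 6971, 2938 and 1544 CPM in the same order, which made it the most abundant member in every stage but condensing spermatids. A control pachytene cell held on average 364 Ldhc UMIs and 36.9 Ldha UMIs. Because both moved together, the Ldhc share of lactate dehydrogenase stayed between 90.8% and 96.9% in all 8 control stages and between 89.9% and 96.3% in the cKO library. The spermatogonial and condensing values of Ldha and Ldhc were at or below the free RNA estimate in both libraries. Ldhb, the heart-type subunit, was at 3.63 to 16.2 CPM in control germ cells, at or below that estimate in 7 of the 8 stages, and at 726 CPM in Sertoli cells. Ldhc alone made up 68.8% of all UMIs of the 31 genes in control pachytene spermatocytes and 11.01% in condensing spermatids.

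**Figure D1:**
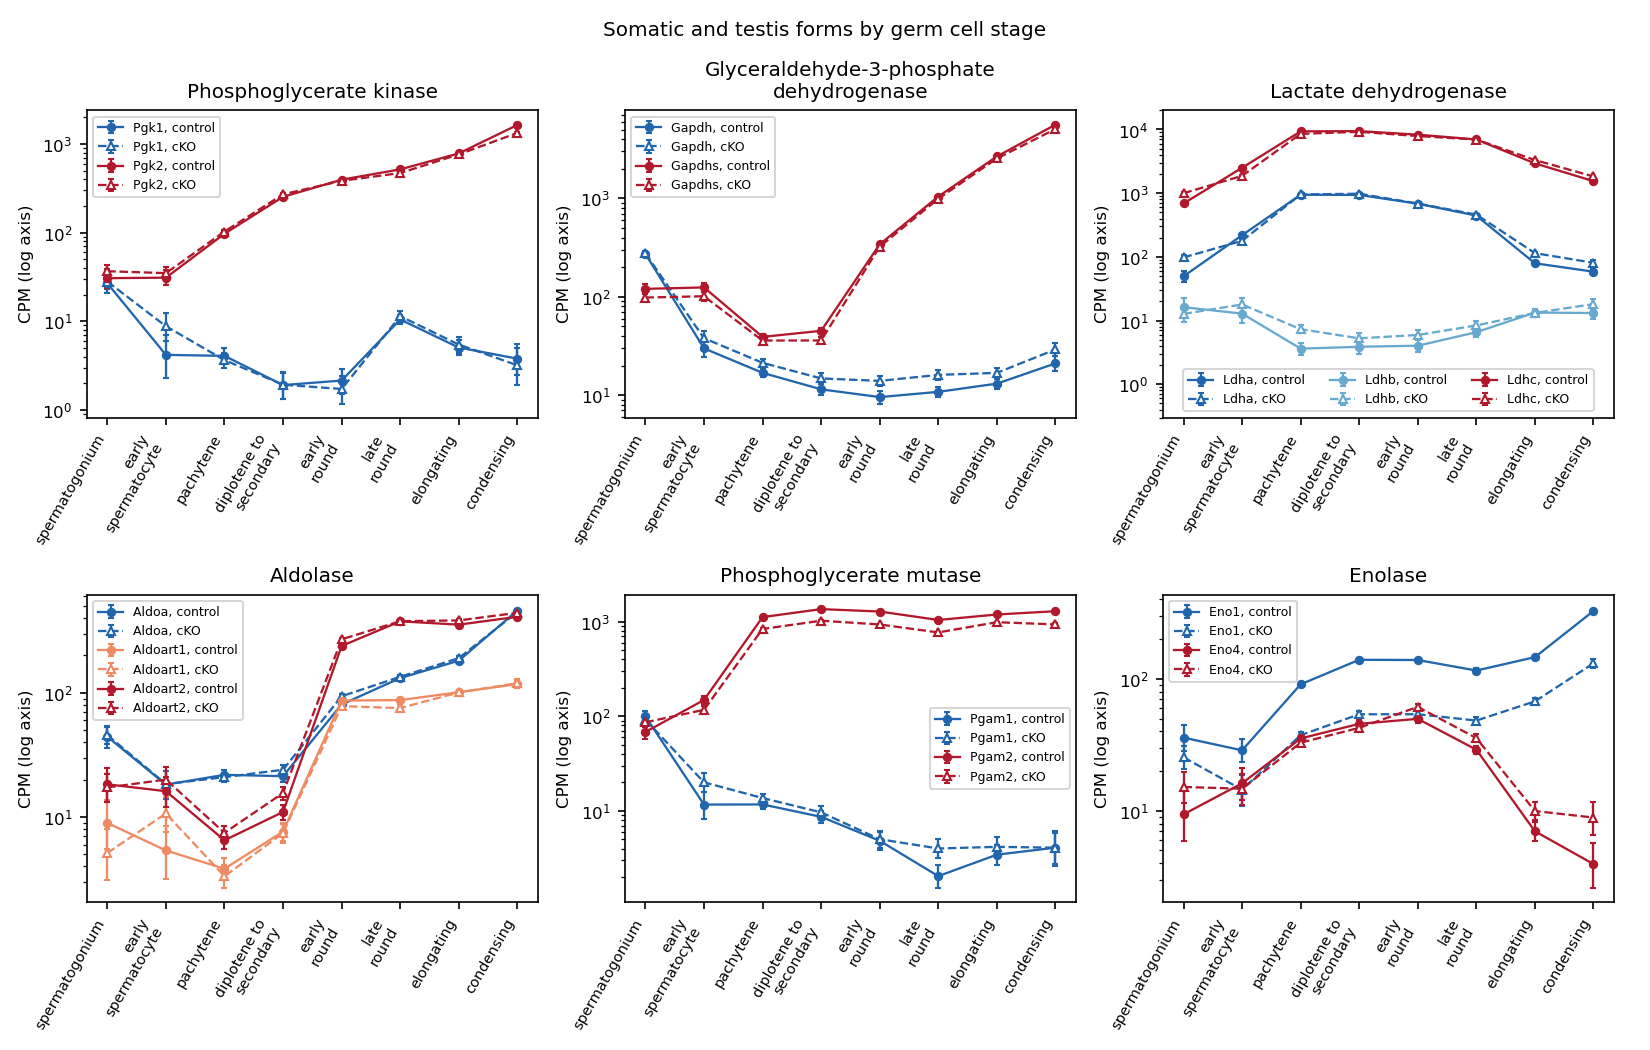
Level of somatic forms (blue) and testis forms (red and orange) in 8 germ cell stages, as CPM on a log axis with exact 95% Poisson intervals, for the control library (filled circles, solid lines) and the cKO library (open triangles, dashed lines). Pgk2 and Gapdhs climb to 1643 and 5602 CPM in control condensing spermatids, Ldha and Ldhc share one course, and the cKO line of Eno1 lies below the control line.

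Aldolase kept both forms through the end of spermiogenesis. Control Aldoa, the widely expressed form, was at 44.4 CPM in spermatogonia, 21.4 in diplotene to secondary spermatocytes, 80.7 in early round and 461 CPM in condensing spermatids. The germ cell copies Aldoart1 and Aldoart2 were at or below 10.995 CPM in control pachytene and diplotene to secondary spermatocytes and at 86.7 and 239 CPM in early round spermatids. Aldoart2 was at 377, 354 and 410.1 CPM in the 3 later stages, and Aldoart1 at 87.5, 101 and 118 CPM. The share of the 2 copies in all aldolase UMIs was therefore highest in early round spermatids, at 80.1% (79.2 to 81.0), and lower in condensing spermatids, at 53.4% (52.2 to 54.6). The cKO shares were 78.7% and 55.6%. Aldoc, the brain form, was highest in spermatogonia, at 17.5 CPM, and under 1 CPM in every other control germ cell stage. The symbol Aldoa stands for 2 gene identifiers in the files, which is why the 31 genes have 32. The values are those of ENSMUSG00000030695, and the other identifier, ENSMUSG00000114515, had at most 52 UMIs in a germ cell stage of either library.

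Among the enolases, Eno1 was the main form throughout and Eno4 a minor one. Control Eno1 was at 35.9 CPM in spermatogonia, between 90.9 and 146 CPM from pachytene to elongating and at 327 CPM in condensing spermatids. Control Eno4, needed for sperm motility in mice, was highest in early round spermatids, at 49.8 CPM, and at 3.94 CPM in condensing spermatids. The condensing level was at or below the free RNA estimate. Eno3, the muscle form, was highest in early spermatocytes, at 32.0 CPM in control and 27.8 CPM in cKO cells, and Eno2, the neuronal form, had 11 UMIs in all control germ cells. The Eno4 share of enolase in the control library was 24.8% (23.4 to 26.2) at its highest, in early round spermatids. Counts of Eno1 are uncertain, because 87.0% of the 40-base words at its 3′ end also occur in other transcripts, above all those of Eno1b.

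The remaining enzymes fell into an early and a late course. Pfkp and Pfkm, forms of phosphofructokinase, the main controlled step of glycolysis, were highest in control diplotene to secondary spermatocytes, at 165 and 75.8 CPM, and at 4.04 and 1.48 CPM in elongating spermatids, at or below the free RNA estimate. Hk1, the hexokinase of sperm, Gpi1, glucose phosphate isomerase, Tpi1, triose phosphate isomerase, and Pkm, pyruvate kinase, were highest in condensing spermatids, at 870.4, 621, 581 and 295 CPM. Gpi1 and Pkm came late and steeply, from 16.3 and 11.2 CPM in early round to 135 and 84.5 CPM in late round spermatids, whereas Tpi1 was already at 125 CPM in pachytene spermatocytes. Gpi1 and Pkm were also higher in control spermatogonia, at 131 and 56.8 CPM, than in any spermatocyte stage, so that they were low in meiosis and high on both sides of it. Hk2 was at 9.82 CPM in control spermatogonia and at no more than 1.23 CPM in any later control stage. Pfkl, the liver form of phosphofructokinase, was under the 50 UMIs over both libraries that counted as measured in all 8 stages.

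Of the sugar transporters, the neuronal-type glucose transporter Slc2a3 led in meiosis and the fructose transporter Slc2a5 followed it. Control Slc2a3 was at 79.8 CPM in spermatogonia, 520.0 in early spermatocytes, 1156 in pachytene and 686 CPM in diplotene to secondary spermatocytes. In early round spermatids it was at 61.3 CPM, and in the 3 later stages at 46.1, 34.4 and 55.4 CPM. In UMIs per control cell this was 45.1 in pachytene, 21.5 in diplotene to secondary spermatocytes and 1.3 in early round spermatids. Slc2a5 was highest 1 stage later, at 283 CPM in control diplotene to secondary spermatocytes, with 219.8 CPM in early round and 124 CPM in late round spermatids. The widely expressed Slc2a1 had 12 UMIs in control spermatogonia and no more than 6 in any later control stage, so the pair of Slc2a3 and Slc2a1 showed no exchange: Slc2a3 made up 94.0% to 100% in every control stage.

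Of the monocarboxylate transporters, which carry lactate and pyruvate, Slc16a1 was highest in spermatogonia and Slc16a7 in late round spermatids. Control Slc16a1 was at 32.9 CPM in spermatogonia, 21.8 in early spermatocytes, 3.25 in pachytene and 0.376 CPM in early round spermatids. Control Slc16a7, which has a high affinity for its substrates, was at 118 CPM in pachytene, 294 in early round, 406 in late round and 82.2 CPM in elongating spermatids. Slc16a3 was under 1 CPM in all 8 control stages.

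**Figure D2:**
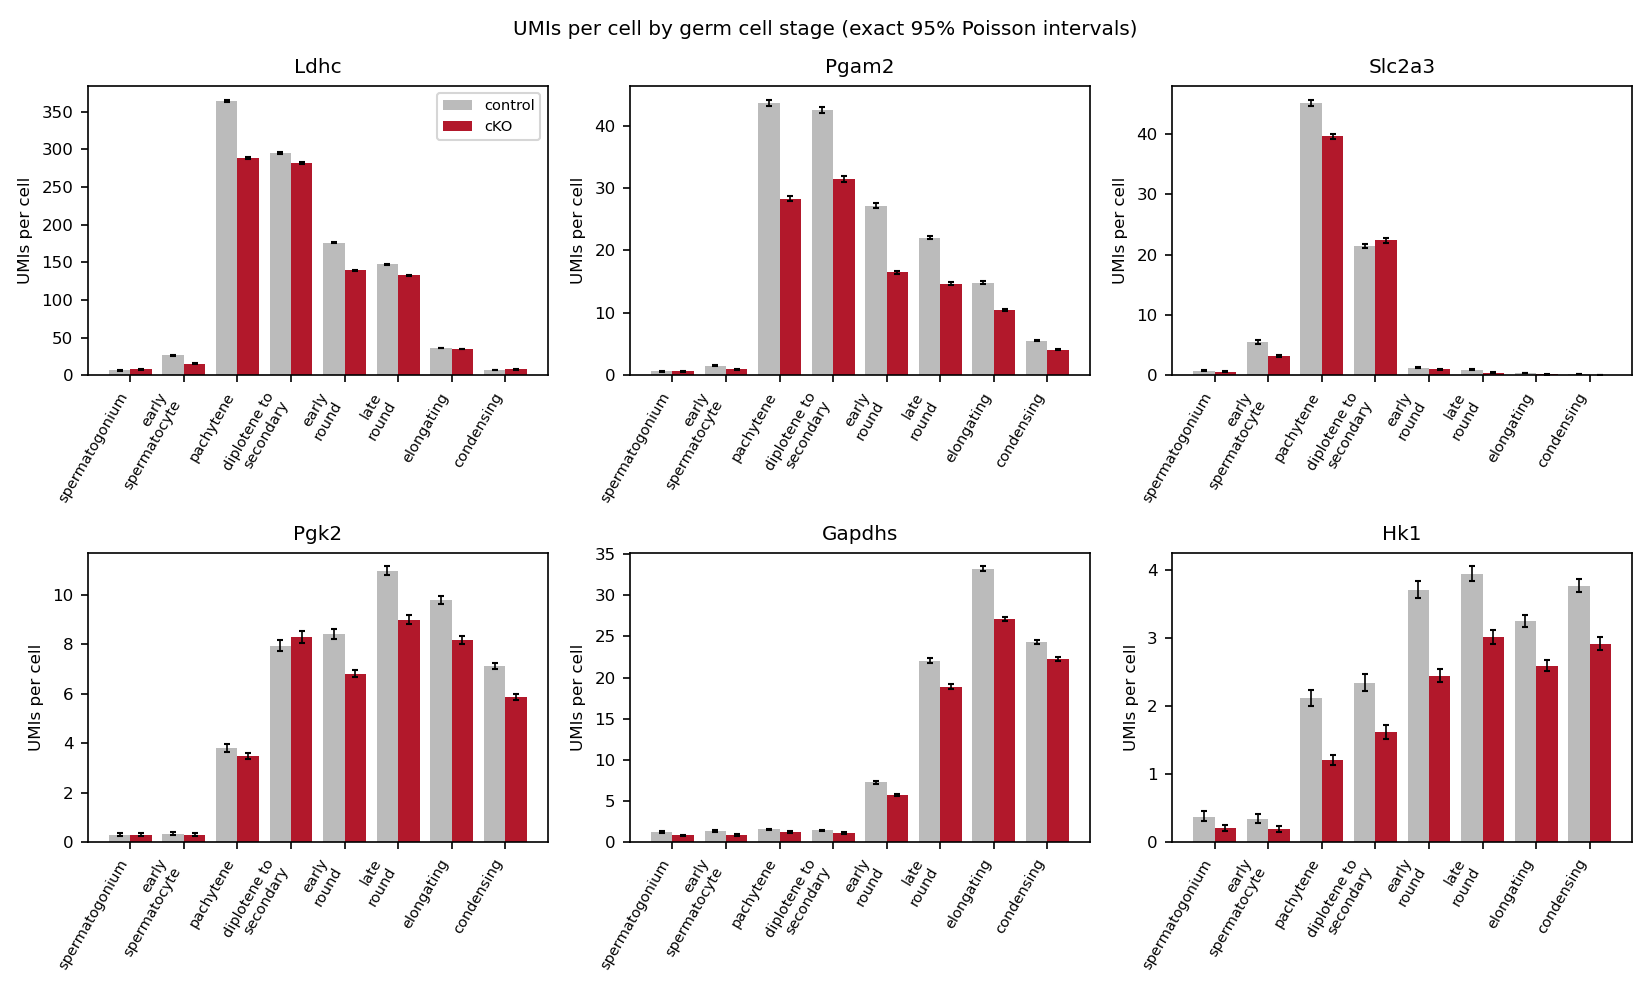
UMIs per cell of 6 members in 8 germ cell stages (bars from 0, grey for the control and red for the cKO library, exact 95% Poisson intervals). Ldhc, Pgam2 and Slc2a3 are highest in pachytene spermatocytes in the control library, at 364, 43.6 and 45.1 UMIs per cell, and Pgk2 and Gapdhs in late round and elongating spermatids.

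Where a member peaks depended on the scale. Of the 31 genes, 27 had 50 or more control germ cell UMIs. By CPM, which weighs a gene against all RNA of the stage, 10 of these 27 genes were highest in control condensing spermatids. By UMIs per cell 0 were, and 6 were highest in late round and 4 in elongating spermatids. The peak stage by CPM was the same in both libraries for 25 of the 27 genes. Together the 31 genes took 0.197% of control UMIs in spermatogonia, 1.36% in pachytene spermatocytes and 1.40% in condensing spermatids, and 0.231%, 1.25% and 1.27% of cKO UMIs.

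**Figure D3:**
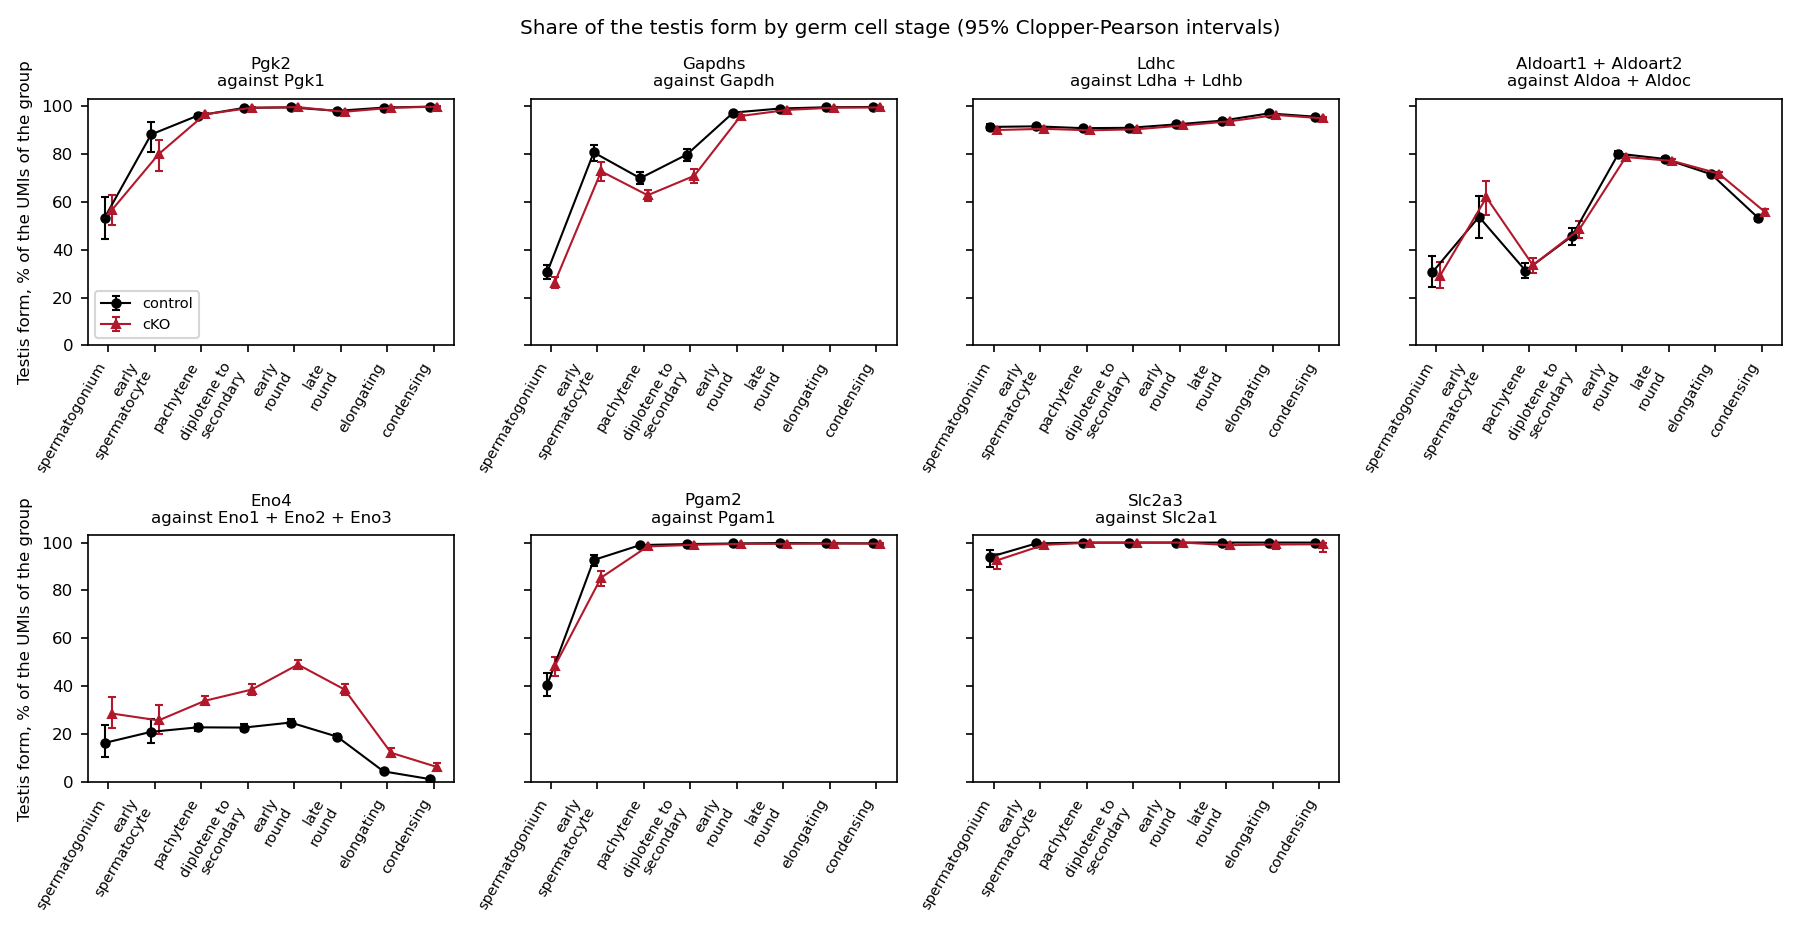
Percent of the UMIs of an enzyme or transporter group that came from the testis form, by germ cell stage, for the control (black circles) and the cKO library (red triangles), with Clopper-Pearson 95% intervals. The 2 libraries overlap or nearly overlap in most panels, and the Eno4 panel shows the cKO library higher, by up to 24.2 points in early round spermatids.

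The comparison of the cKO with the control library asked whether this sequence of forms differed with the genotype. In 7 groups and 8 stages, the testis share differed between libraries by over 5 percentage points in 14 of 56 combinations, and by a median of -0.23 points (cKO minus control). Of those 14, 7 were Eno4. There the somatic Eno1 was lower in the cKO library. Eno4 itself was higher in 10 of 10 windows of rising late marker level across spermatids, with log2 ratios from 0.22 to 1.58. The 1.58 came from 7 control and 22 cKO UMIs, and the intervals of windows 5, 7, 9 and 10 included 0. In condensing spermatids Eno4 was at or below the free RNA estimate in both libraries. The remaining 7 of the 14 combinations lay in spermatogonia and spermatocytes, with the testis form at or below the free RNA estimate in 1 or both libraries. Gapdhs made up 62.7% of its pair in cKO and 69.9% in control pachytene spermatocytes, a stage in which its level was at or below the free RNA estimate. In both libraries Ldhc, Pgam2 and Pgk2 were above the free RNA estimate in pachytene spermatocytes and Gapdhs was above it only from early round spermatids on.

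For levels, a gene counted as measured in a stage with 50 or more UMIs over both libraries, and as higher or lower when its CPM differed by over 1.5-fold. This is a rule of size, not a test. Of the 31 genes, 27 were measured in at least 1 germ cell stage and 21 in all 8, and Pfkl, Eno2, Slc2a1 and Slc16a3 were measured in none. Over 197 measured combinations of gene and stage, 15 were higher in the cKO library, 13 were lower and 169 were within 1.5-fold. With median-of-ratios scaling, which sets the median gene to no difference, the split was 13 higher and 19 lower. With the estimated free RNA subtracted it was 6 higher and 22 lower. By stage, spermatogonia had 2 higher and 2 lower of 25 measured, against 9.15% and 3.74% of all measured genes. Early spermatocytes had 4 and 1 of 24, against 11.8% and 4.34%. Pachytene spermatocytes had 2 and 2 of 25, against 10.4% and 4.3%. Diplotene to secondary spermatocytes had 1 and 1 of 25, against 13.7% and 4.83%. Counts of 1 to 4 genes per stage were thus close to what the background share gives for 24 or 25 genes, apart from the single higher gene in diplotene to secondary spermatocytes.

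In spermatids a larger share of all genes than of the 31 was higher in the cKO library. Early round spermatids had 0 higher and 1 lower of 24, against 20.4% and 5.77% of all measured genes. Late round spermatids had 3 and 2 of 26, against 18.6% and 7.96%. Elongating spermatids had 2 and 2 of 26, against 35% and 4.28%, and condensing spermatids had 1 and 2 of 22, against 34.7% and 3.38%. The median log2 ratio over the members was 0.07 in elongating and 0.01 in condensing spermatids, while that over all measured genes was 0.39 and 0.40. The glycolysis genes thus lay near equal CPM in 2 stages in which the median gene was higher in the cKO library. CPM is a share of all UMIs of a stage, so it also depends on the most abundant genes. The protamine gene Prm1 was at 125382 CPM in control and 75209 CPM in cKO elongating spermatids, and at 61764 and 31903 CPM in condensing ones. Prm2, Tnp1 and Tnp2 were also at lower CPM in the cKO library in both stages. Their part in the ratios was not tested.

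**Figure D4:**
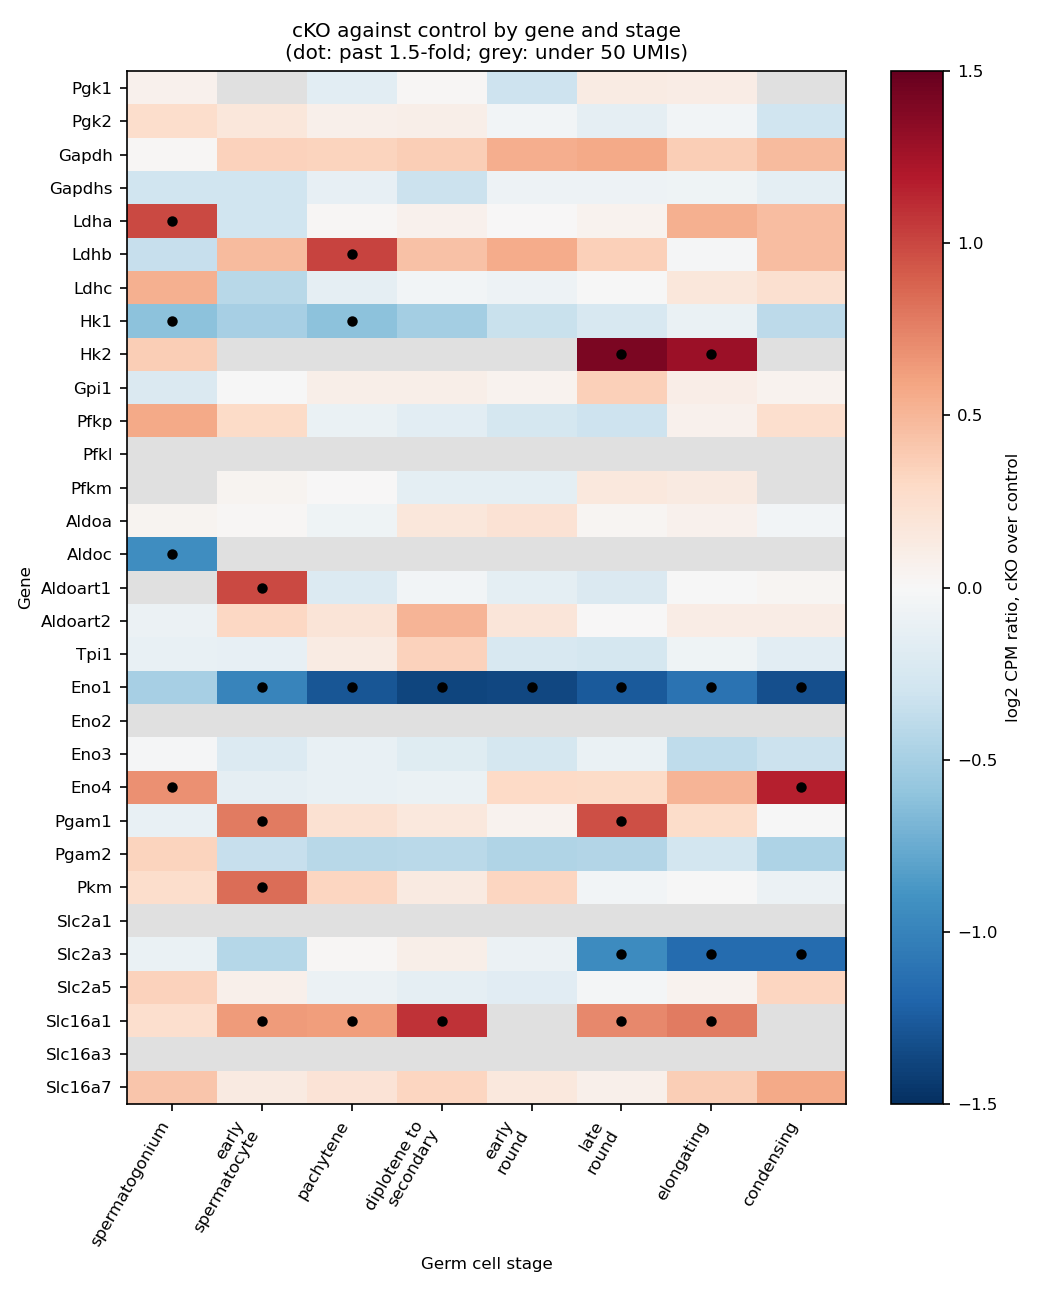
Log2 ratio of CPM, cKO over control, for the 31 genes (rows) in 8 germ cell stages (columns), from blue (lower in the cKO library) to red (higher). Dots mark ratios past 1.5-fold and grey marks combinations with under 50 UMIs. The Eno1 row has a dot in every stage but spermatogonia, and the Slc2a3 row in the last 3.

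By CPM, the testis forms themselves were close between the libraries. Of 63 measured combinations of the 8 testis forms and 8 stages, 3 were higher and 3 were lower. Of all measured genes, 9.15% to 35% were higher and 3.38% to 7.96% lower, depending on the stage. The 3 lower combinations were all of Slc2a3. The higher ones were Eno4 in spermatogonia, at 9.39 CPM in control and 15.2 CPM in cKO cells, Eno4 in condensing spermatids, at 3.94 and 8.88 CPM, and Aldoart1 in early spermatocytes, at 5.39 and 10.7 CPM. In the last 2 of these the levels were at or below the free RNA estimate in both libraries. Pgk2 was at 785 CPM in control and 766 CPM in cKO elongating spermatids, a log2 ratio of -0.04, and at 1643 and 1336 CPM in condensing spermatids, a log2 ratio of -0.30 (-0.34 to -0.26). Gapdhs was at 2664 and 2542 CPM in elongating and at 5602 and 5059 CPM in condensing spermatids, with log2 ratios of -0.07 (-0.09 to -0.05) and -0.15 (-0.17 to -0.12). By CPM, both genes were thus slightly lower in the cKO library in the last stage, inside the 1.5-fold range. The median gene was at a log2 ratio of 0.40 there. Set against that median, Pgk2 was past 1.5-fold lower and Gapdhs was not. Ldhc was at 9340 CPM in control and 8536 CPM in cKO pachytene spermatocytes, a log2 ratio of -0.13 (-0.14 to -0.12), and at 6971 and 6946 CPM in late round spermatids, a log2 ratio of -0.01 (-0.02 to 0.00). It was higher in cKO elongating spermatids, at 2938 CPM in control and 3313 CPM in cKO cells, and in condensing spermatids, at 1544 and 1828 CPM, the last at or below the free RNA estimate. In 10 windows of rising late marker level, Ldhc was lower in the first 3 and higher in the other 7. The log2 ratio of Ldhc reached 0.52 (0.47 to 0.58) and that of Ldha 0.69, both in window 7. There Ldha was at only 40.7 CPM in control and 65.9 CPM in cKO cells. Free RNA was not subtracted in the windows, and its estimate, made in somatic cells, was larger per cell in the cKO library. Its part in these ratios was not tested. In early spermatocytes Ldhc was lower, at 2504 CPM in control and 1871 CPM in cKO cells, a log2 ratio of -0.42. The aldolase copy Aldoart2 was at 239 and 269.7 CPM in early round and at 377 and 378 CPM in late round spermatids.

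Pgam2, like Gapdhs, was at a lower CPM in the cKO library in each stage from early spermatocytes on, and never past 1.5-fold by CPM. It was at 1117 CPM in control and 837 CPM in cKO pachytene spermatocytes, 1357 and 1024 CPM in diplotene to secondary spermatocytes, and 1281 and 934 CPM in early round spermatids. The log2 ratios were between -0.46 and -0.27 from pachytene to condensing spermatids. The median gene was at 0.39 in elongating and 0.40 in condensing spermatids. Set against that median, Pgam2 was past 1.5-fold lower in both of these stages. Counted per cell, Pgam2 had 43.6 UMIs in control and 28.3 in cKO pachytene spermatocytes. These counts are not scaled for depth, and the cKO cells were shallower, with median depths of 38912 and 33093 UMIs. When spermatids were cut into 10 windows of rising level of late marker genes, Pgam2 was lower in the cKO library in 10 of 10, with log2 ratios from -0.77 to -0.23. Pgk2 and Gapdhs were also lower in 10 of 10, with log2 ratios from -0.29 to -0.02 and from -0.22 to -0.04. Thinned to 2000 UMIs, 90.4% of control and 78.8% of cKO early round spermatids had a Pgam2 UMI.

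The Slc2a3 ratio differed by stage. Slc2a3 was at 1156 CPM in control and 1172 CPM in cKO pachytene spermatocytes, at 686 and 730.0 CPM in diplotene to secondary spermatocytes and at 61.3 and 57.6 CPM in early round spermatids. These 3 pairs lay within a log2 ratio of -0.09 to 0.09. In late round spermatids it was at 46.1 CPM in control and 24.0 CPM in cKO cells, in elongating spermatids at 34.4 and 15.5 CPM, and in condensing spermatids at 55.4 and 24.9 CPM. The log2 ratios were -0.94 (-1.10 to -0.78), -1.15 (-1.36 to -0.94) and -1.15 (-1.44 to -0.87), the intervals all below 0. The cKO level in elongating and condensing spermatids was at or below the free RNA estimate, so the true ratio there may be further from 0 than the one printed. In the 10 windows the log2 ratio was -0.14, -0.16 and -0.32 in the first 3 and -1.45 and -1.52 in the next pair, so the difference appeared within the late round stage. With stages taken from clusters the late round ratio was -0.37.

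**Figure D5:**
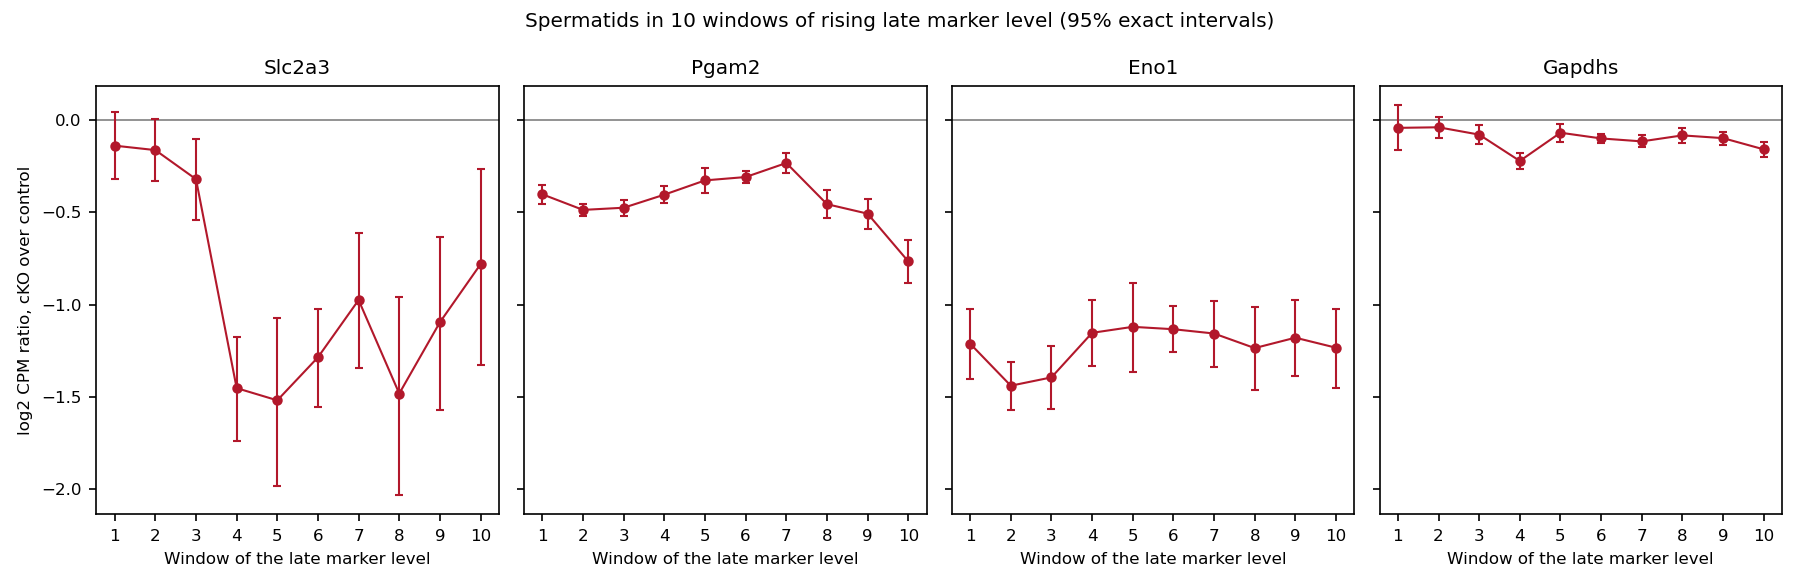
Log2 ratio of CPM, cKO over control, of 4 members in 10 windows of rising late marker level across spermatids, with exact 95% intervals and a line at equal CPM. Slc2a3 passes from -0.32 in the third to -1.45 in the fourth window, Pgam2 and Eno1 are below 0 in all 10, and Gapdhs is between -0.22 and -0.04.

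Eno1 was past 1.5-fold in more stages than any other member, in 7 of 8. It was at 90.9 CPM in control and 37.4 CPM in cKO pachytene spermatocytes, at 139.5 and 53.9 CPM in diplotene to secondary spermatocytes, at 116 and 48.3 CPM in late round and at 327 and 131 CPM in condensing spermatids. The log2 ratio was between -1.37 and -0.99 in the 7 stages from early spermatocytes on, and -0.49 (-0.94 to -0.05) in spermatogonia. In Sertoli cells Eno1 was at 185 CPM in control and 64.0 CPM in cKO cells, a log2 ratio of -1.53 (-1.80 to -1.26), and in Leydig cells at 151 and 55.9 CPM, a log2 ratio of -1.44 (-1.98 to -0.88). The cKO level in Sertoli cells was at or below the free RNA estimate, which came to 65.2% of the Eno1 UMIs of control Sertoli cells. Eno1b, with which Eno1 shares most of its 3′ end, was also lower in late round spermatids, at 28.8 CPM in control and 14.1 CPM in cKO cells. Whether reads were split between these genes in the same way in both libraries was not tested.

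Slc16a1 was past 1.5-fold in 5 stages, and each other member described next in 1 or 2. Hk1 was at 54.4 CPM in control and 35.6 CPM in cKO pachytene spermatocytes, a log2 ratio of -0.61 (-0.73 to -0.49), with a log2 ratio of -0.10 in elongating and of -0.39 in condensing spermatids, where it was at 870.4 and 665 CPM. It was lower in 10 of 10 windows, and also past the threshold in spermatogonia, at 38.8 and 25.4 CPM. There the cKO level was at or below the free RNA estimate. Aldoc was lower in spermatogonia, at 17.5 CPM in control and 9.2 CPM in cKO cells, from 41 and 34 UMIs. Slc16a1 was measured in 6 germ cell stages and past 1.5-fold higher in the cKO library in 5 of them, with 21.8 CPM in control and 33.9 CPM in cKO early spermatocytes and 3.74 and 6.41 CPM in elongating spermatids. Pkm was at 25.1 and 44.9 CPM in early spermatocytes, a log2 ratio of 0.84 (0.45 to 1.23), but at 174 and 173 CPM in elongating spermatids. Pgam1 was at 11.7 and 20.04 CPM in early spermatocytes, and Hk2 at 1.23 and 2.99 CPM in elongating spermatids. Ldha was at 49.5 and 98.0 CPM in spermatogonia and Ldhb at 3.63 and 7.32 CPM in pachytene spermatocytes, in both libraries at or below the free RNA estimate. Of the 28 combinations past 1.5-fold, 20 were above that estimate in both libraries, 10 higher and 10 lower. The estimate, made in somatic cells, was larger per cell in the cKO library. In spermatogonia and in early and pachytene spermatocytes, the spermatid genes Prm1, Prm2, Tnp1 and Tnp2 were at lower CPM in the cKO library. Prm1 was at 2127 CPM in control and 1247 CPM in cKO spermatogonia and at 697 and 441 CPM in pachytene spermatocytes. The part of free RNA in the other 8 was not tested.

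A list of 60 other genes of sugar metabolism was set beside the members. Over 254 measured combinations, 52 were higher and 15 lower in the cKO library. Of all measured genes, 9.15% to 35% were higher and 3.38% to 7.96% lower, depending on the stage. Pgp, a phosphatase that removes toxic by-products of glycolysis, was higher in all 8 stages, by the most of any listed gene. It was at 46.1 CPM in control and 407 CPM in cKO spermatogonia, at 141 and 1478 CPM in pachytene and at 374 and 3364 CPM in condensing spermatids, with log2 ratios from 2.78 to 3.39. In Sertoli cells it was at 199 and 1597 CPM, a log2 ratio of 3.01 (2.84 to 3.18), a group whose barcodes are shallow. In Leydig cells the log2 ratio of Pgp was 3.43, from 30 control and 1458 cKO UMIs. It was 3.76 in macrophages, from 9 and 485 UMIs, and 3.76 in mesenchymal cells, from 14 and 545 UMIs. The part of free germ cell RNA in these somatic values was not tested. Pdk3, which inhibits pyruvate dehydrogenase, was at 11.2 and 22.5 CPM in elongating spermatids, a log2 ratio of 1.01 (0.77 to 1.26). Tkt, of the pentose phosphate pathway, was lower, at 18.7 and 10.98 CPM in pachytene spermatocytes, a log2 ratio of -0.77 (-0.98 to -0.56). Pfkfb2, which sets the level of an activator of phosphofructokinase, was at 42.8 and 28.0 CPM in late round spermatids, a log2 ratio of -0.61 (-0.76 to -0.46).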

How the data were processed

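The authors deposited 1 filtered matrix of UMI counts per library, written by Cell Ranger 7.0.0 per the file headers; the genome was mm10 and Seurat 4.1.0 was used, per the submitters' processing notes. Counts were used as deposited. Barcodes with at least 500 UMIs, at least 300 genes and at most 10% mitochondrial UMIs were kept. A doublet caller's automatic threshold marked 0 cells, so the 5% of barcodes with the highest doublet scores were removed per library (773 control, 864 cKO). Stages came from marker genes through limits set after the data were seen, and the members and lists were chosen with earlier results of these data known. UMIs were summed per stage and library and given as CPM. The free RNA profile came from unstaged barcodes under 1000 UMIs. Shared 3′ ends were read as 40-base words of the last 400 bases in GENCODE transcripts. Genes described with values are both forms of each pair, the most abundant member of each other step, and members past 1.5-fold with 100 or more UMIs in a stage; members past 1.5-fold with fewer UMIs are named too. Of the other list, a selection of the 4 highest and 4 lowest ratios per stage is named. The ratio script was tested on simulated data. The 12 alternative settings are named in the closing section. Python 3.11.15, numpy 2.4.6, scipy 1.17.1, pandas 2.3.3, scanpy 1.11.5 and matplotlib 3.10.9 were used.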

Additional observations from a re-analysis of the deposited data

Results flagged for a closer look

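For 3 members, cell groups went in opposite directions past 1.5-fold between the libraries. The differences between cell groups were not tested, and each rests on 1 library per genotype. Slc2a3 was higher in the cKO library in Leydig cells, with a log2 ratio of 1.13 from 19 control and 187 cKO UMIs, and in macrophages, with 2.36 from 8 and 163 UMIs. Pachytene spermatocyte transcripts moved with it: Piwil1 was at 22.5 CPM in control and 51.6 CPM in cKO Leydig cells and at 7.37 and 200.3 CPM in macrophages, and Hspa2 at 309 and 385 CPM and at 214 and 727 CPM. Their part in the Slc2a3 values was not tested. It was lower in late round, elongating and condensing spermatids, with log2 ratios of -0.94, -1.15 and -1.15. Pkm had a log2 ratio of 0.84 in early spermatocytes and of -1.02 in macrophages, from 23 and 45 UMIs. Pfkp had a log2 ratio of 1.33 in macrophages, from 5 and 50 UMIs, and of -0.93 in Leydig cells, from 17 and 40 UMIs. The somatic groups are small, with 33 control macrophages and 101 control Leydig cells.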

How the results depend on the processing

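No paired analysis was possible because there is 1 library per genotype. The 28 combinations of member and stage past 1.5-fold became 15 when 200 or more UMIs were asked for and 13 at 2-fold. The 15 higher ones became 5 with 200 or more UMIs, 5 at 2-fold and 6 with free RNA subtracted, and the 13 lower ones became 8 at 2-fold and 22 with free RNA subtracted. In the list of other sugar metabolism genes, subtracting free RNA gave 34 higher in place of 52 and 23 lower in place of 15. Subtraction takes too much from shallow cells. With windows of late genes at equal weights, an alternative chosen after seeing the data, 18 were higher and 13 lower. The other settings gave 28 to 38 combinations: mitochondrial UMIs up to 20%, doublets kept, cells with 2000 or more UMIs, stages from clusters, the mean over cells, median-of-ratios scaling, totals without the 50 most abundant genes, and 20 or more UMIs. Of single values, 43 moved with the mean over cells, 24 without the 50 most abundant genes, 48 with median-of-ratios scaling, 56 with free RNA subtracted and 58 with stages from clusters. Each of the 28 kept its direction in the settings that gave it a value. The testis form made up over 50% in 43 of 56 control shares, and in 34 to 45 over the settings. Stages from clusters gave no early spermatocyte stage. Their diplotene to secondary spermatocyte stage held 473 cKO and 0 control cells, so it gave no ratio either. Shallow stages limit low members: Pfkl, Eno2, Slc2a1 and Slc16a3 were under 50 UMIs in every germ cell stage.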
